A study of Homo sapiens with 6 samples.

Results

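The HOX genes encode homeodomain transcription factors that give cells their position along the body axis, and in humans they lie in 4 clusters. Genes within a cluster are numbered by their place in it, and genes of the same number in different clusters are paralogs of each other. Low-numbered genes are known for anterior positions and high-numbered genes for posterior ones, and in the female reproductive tract HOXA9, HOXA10, HOXA11 and HOXA13 mark successive stretches from oviduct to vagina. The clusters also hold sites of CTCF, a zinc-finger protein that binds DNA and anchors chromatin loops, and these sites are known to part active from Polycomb-silenced stretches. BORIS, the protein of the CTCFL gene, is a germ-line paralog of CTCF with a closely similar zinc-finger domain. The members described here were the rows of the deposited expression table whose symbol was HOXA, HOXB, HOXC or HOXD followed by a number, and they came to 39 of 23278 rows, with 11 in HOXA, 10 in HOXB, 9 in HOXC and 9 in HOXD. Long non-coding and antisense transcripts of the clusters are not members.

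All cells were FT282, an immortalised human line of fallopian tube secretory epithelium. Per the labels they were a clonal derivative of that line, although the source label names normal tissue. BORIS cells stably expressed BORIS, and EV cells carried the empty vector. CTCF was precipitated in both populations (CTCF ChIP-seq), BORIS in BORIS cells only, and RNA was sequenced from both, so that each group held 1 sample. No difference below therefore has a replicate error or a test, and each describes these libraries. In bulk RNA, fewer cells that express a gene and less RNA per cell cannot be told apart.

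RNA levels are given as FPKM, a value scaled to transcript length and library size, and the depth of the libraries was unknown. CTCFL stood at 53.3 FPKM in BORIS cells and 0.00532 FPKM in EV cells, and CTCF at 20.8 FPKM in BORIS cells and 21.1 FPKM in EV cells. The secretory markers PAX8 and KRT7 were present, with PAX8 at 72.5 and KRT7 at 885 FPKM in BORIS cells, and PAX8 at 71.3 and KRT7 at 1055 FPKM in EV cells, while EPCAM, CDH1 and OVGP1 were under 1 FPKM in both. Of 12 secretory markers 9 reached 1 FPKM in either library, the rule for all marker lists here. Their list summed to 1502 FPKM in BORIS cells and 1747 FPKM in EV cells. This includes KRT8 (254 in BORIS cells, 300 in EV cells) and KRT18 (230 in BORIS cells, 258 in EV cells). Both were listed with 1 shared span and a failed status in the authors' deposited table, and the median ratio given next is that of KRT8. Of the 9, 7 had log2 ratios below 0 and 2 above (median -0.24), against 50.1% below 0 among all genes that reached 1 FPKM. MUC1 (0.850 FPKM in BORIS cells, 1.45 in EV cells) reached 1 FPKM in EV cells only. So did MUC16 (0.627 in BORIS cells, 1.04 in EV cells) and WFDC2 (0.661 in BORIS cells, 1.28 in EV cells). In the count above, MUC1, MUC16 and WFDC2 could therefore only fall below 0. MUC1, MUC16 and CDH1 carried the authors' mark as lower in BORIS cells. Among markers of other cell types, 2 of 7 ciliated genes reached 1 FPKM (summed 2.39 in BORIS cells, 2.83 in EV cells, with FOXJ1 and DNAI1 listed at 0), and so did 2 of 6 leukocyte genes (4.52 in BORIS cells, 3.78 in EV cells, with CD3E listed at 0). The same held for 3 of 5 endothelial genes (33.4 FPKM in BORIS cells, 38.8 in EV cells, almost all of it CDH5), 3 of 4 mesothelial genes (224 in BORIS cells, 241 in EV cells) and 4 of 8 fibroblast genes (1599 in BORIS cells, 1494 in EV cells, mostly VIM). Of the 4 measured fibroblast genes 3 had ratios below 0 (50.1% of all genes that reached 1 FPKM). COL1A1 was at 46.5 FPKM in BORIS cells and 64.8 FPKM in EV cells, and PDGFRB at 0.763 FPKM in BORIS cells and 1.38 FPKM in EV cells. PDGFRB reached 1 FPKM in EV cells only, so it could only fall below 0. The mesothelial gene UPK3B was at 24.4 FPKM in BORIS cells and 42.2 FPKM in EV cells (log2 ratio -0.77). The part of these markers in the HOX values was not tested.

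The cells of both populations used the low and middle numbers of HOXA and HOXB and a weaker stretch of HOXC, and left HOXD at or near 0. A gene was counted as measured when it had at least 1 FPKM in either library. This was so for 19 of the 39 HOX genes, against 53.7% of all rows, and those were 6 in HOXA, 7 in HOXB, 6 in HOXC and 0 in HOXD. Of the other 20, the highest value was 0.694 FPKM (HOXA7 in EV cells), and 10 were listed at 0 in both libraries, 7 of them in HOXD.

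**Figure D1:**
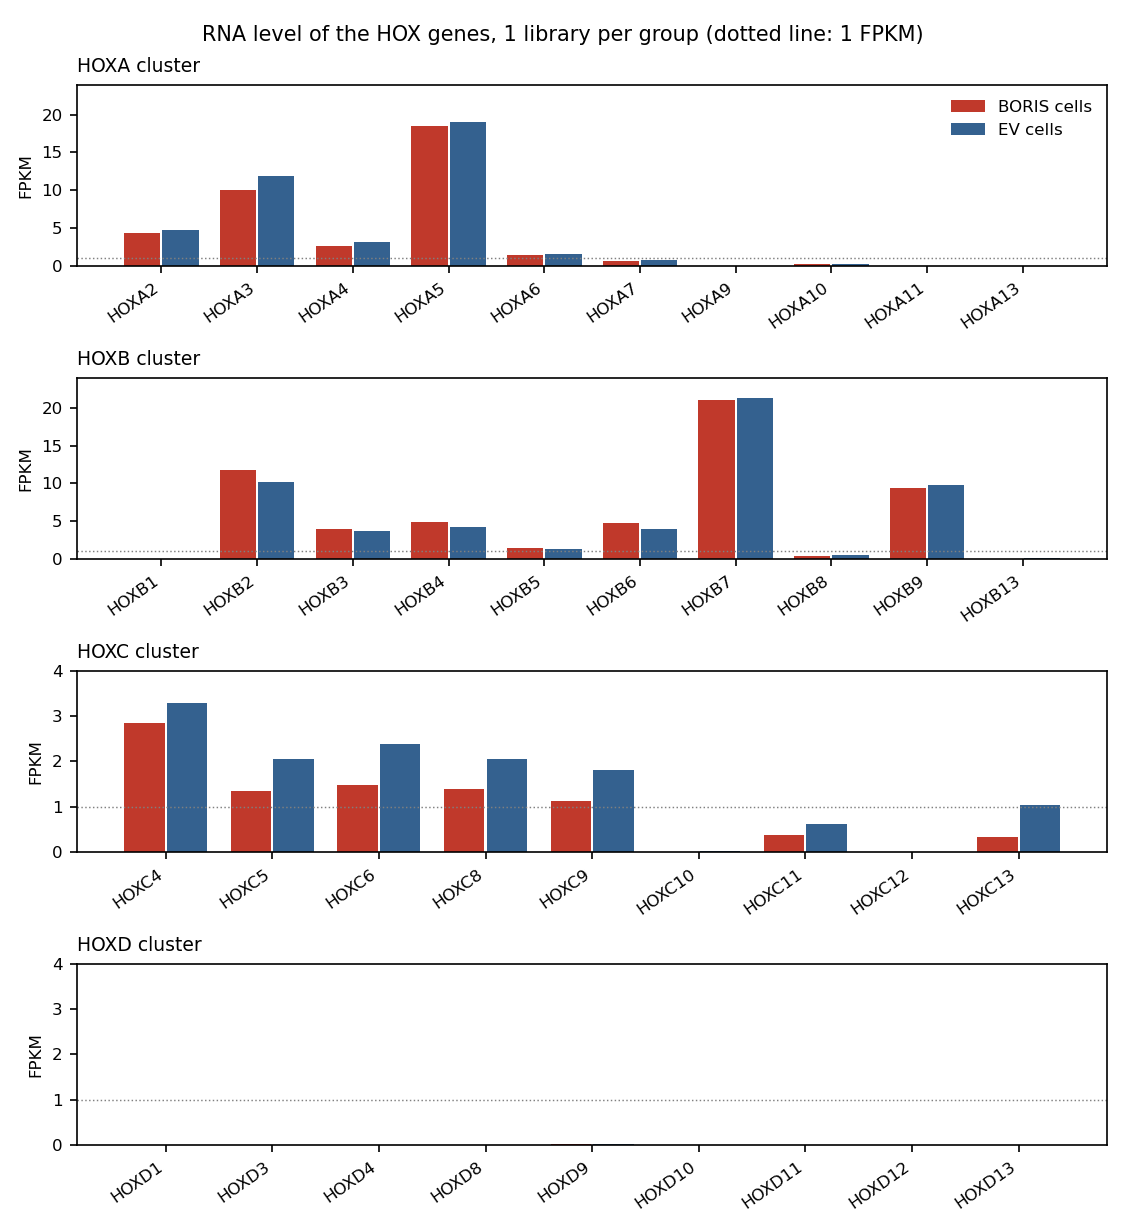
RNA level in FPKM (linear axis from 0, with a separate scale for HOXA and HOXB and for HOXC and HOXD) of the HOX genes in BORIS cells (left bar) and EV cells (right bar), 1 library each, with genes in order of number. HOXB7 and HOXA5 had the tallest bars at 21.1 and 18.5 FPKM in BORIS cells and 21.2 and 19.1 FPKM in EV cells, and no HOXD gene showed a visible bar.

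By paralog number, genes 1 to 3 were measured in 5 of 8 cases and genes 4 to 8 in 11 of 15. Genes 9 to 13 were measured in 3 of 16 cases, and these were HOXB9, HOXC9 and HOXC13. Summed over genes, numbers 4 to 8 held 62.5 FPKM in BORIS cells and 65.5 FPKM in EV cells, and numbers 9 to 13 held 11.5 FPKM in BORIS cells and 13.6 FPKM in EV cells. The 39 genes together came to 107 FPKM in BORIS cells and 113 FPKM in EV cells.

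In HOXA, RNA ran over the low numbers up to HOXA6. HOXA5, a middle-group gene known for its part in lung development, was at 18.5 FPKM in BORIS cells and 19.1 FPKM in EV cells. HOXA3, known for its part in thymus and parathyroid development, was at 10.0 FPKM in BORIS cells and 11.8 FPKM in EV cells. HOXA2, a patterning gene of the hindbrain and the second branchial arch, was at 4.30 FPKM in BORIS cells and 4.78 FPKM in EV cells.

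HOXA4 was at 2.61 FPKM in BORIS cells and 3.09 FPKM in EV cells, and HOXA6 at 1.42 FPKM in BORIS cells and 1.59 FPKM in EV cells. Each of these was a little lower in BORIS cells. The ratio is given as log2((BORIS + 1)/(EV + 1)), with 1 FPKM added to both values, which understates the difference of low genes. It lay between -0.22 (HOXA3) and -0.04 (HOXA5), with a median of -0.14 over the measured genes of the cluster. The genes that mark the reproductive tract were low: HOXA10, known for its role in the uterus, was at 0.264 FPKM in BORIS cells and 0.233 FPKM in EV cells. HOXA9, which marks the oviduct in the mouse, was listed at 0 in BORIS cells and at 0.0190 FPKM in EV cells. HOXA11 was listed at 0 in both, and HOXA13 was at 0.00602 FPKM in BORIS cells and listed at 0 in EV cells.

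In HOXB, RNA ran from HOXB2 to HOXB9 with a gap at HOXB8, which was at 0.343 FPKM in BORIS cells and 0.514 FPKM in EV cells. HOXB7 was the HOX gene with the highest level in both libraries, at 21.1 FPKM in BORIS cells and 21.2 FPKM in EV cells. HOXB2, a hindbrain gene, was at 11.7 FPKM in BORIS cells and 10.2 FPKM in EV cells. HOXB9 was the only gene numbered above 8 with more than 2 FPKM, at 9.38 FPKM in BORIS cells and 9.76 FPKM in EV cells.

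HOXB4, known from blood stem cells, was at 4.83 FPKM in BORIS cells and 4.20 FPKM in EV cells. HOXB6 was at 4.71 FPKM in BORIS cells and 4.001 FPKM in EV cells, HOXB3 at 3.998 FPKM in BORIS cells and 3.73 FPKM in EV cells, and HOXB5 at 1.37 FPKM in BORIS cells and 1.28 FPKM in EV cells. Of the 7 measured HOXB genes 5 were a little higher and 2 a little lower in BORIS cells, with log2 ratios from -0.05 (HOXB9) to 0.19 (HOXB2) and a median of 0.08, or -0.011 over those with at least 5 FPKM. HOXB1 was listed at 0 in both libraries, and HOXB13, known as a prostate gene, was listed at 0 in BORIS cells and at 0.0627 FPKM in EV cells.

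HOXC differed most between the libraries, at low levels. HOXC4 was at 2.84 FPKM in BORIS cells and 3.28 FPKM in EV cells, HOXC6 at 1.48 FPKM in BORIS cells and 2.38 FPKM in EV cells, and HOXC5 at 1.34 FPKM in BORIS cells and 2.05 FPKM in EV cells. HOXC8 was at 1.40 FPKM in BORIS cells and 2.05 FPKM in EV cells, and HOXC9 at 1.13 FPKM in BORIS cells and 1.80 FPKM in EV cells. Both are trunk-level genes in the embryo. HOXC13, known for its control of hair and nail keratins, was at 0.329 FPKM in BORIS cells and 1.04 FPKM in EV cells.

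All 6 measured HOXC genes were lower in BORIS cells, and their plain FPKM ratios of BORIS to EV cells lay between 0.316 (HOXC13) and 0.867 (HOXC4), with HOXC6 and HOXC9 both at 0.625. HOXC13 reached 1 FPKM in EV cells only, so as a measured gene it could only be lower in BORIS cells. The log2 ratios of the 6 genes lay between -0.62 (HOXC13) and -0.16 (HOXC4), with a median of -0.39, and the cluster's FPKM summed to 8.88 in BORIS cells and 13.2 in EV cells. Under 1 FPKM, HOXC11 was at 0.367 FPKM in BORIS cells and 0.605 FPKM in EV cells. HOXC10 was listed at 0 in BORIS cells and at 0.0222 FPKM in EV cells, and HOXC12 at 0 in both. HOXD9 (0.0165 FPKM in BORIS cells, 0.0129 FPKM in EV cells) and HOXD13 (0.00701 FPKM in BORIS cells, listed at 0 in EV cells) were the only HOXD genes with any value above 0.

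The HOX genes were set beside all measured genes. With a log2 ratio of at least 0.5 in size as the threshold, 0 of 19 measured HOX genes were higher (3.23% of all measured genes) and 1 was lower (2.33%), which was HOXC13. That gene met the minimum of 1 FPKM in EV cells alone, so it could only fall below 0, here and in the counts that follow. At a log2 ratio of 1 the counts were 0 higher (1.45%) and 0 lower (0.936%). The share below 0 was 14 of 19 HOX genes, 6 of 6 in HOXA, 2 of 7 in HOXB and 6 of 6 in HOXC, against 50.1% of all measured genes. Among all genes whose higher value was from 1 to under 5 FPKM, the range that holds every measured HOXC gene, 51.4% were below 0 and 2.9% were lower by 0.5. The median log2 ratio was -0.13 over HOX genes and -0.0004 over all 12496 measured genes.

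With only 0.1 FPKM added to both values, 5 of the 6 measured HOXC genes were lower by at least 0.5 (3.48% of all measured genes), and no other HOX gene was. A smaller pseudocount widens the ratios of low genes most, and no share among genes of like level was made with it. The authors' deposited table marked 3 HOX genes as significantly lower, HOXC13 (q = 0.000817), HOXC8 (q = 0.00512) and HOXC9 (q = 0.0103), and marked 0 as higher, against 6.4% and 5.43% of all measured genes marked lower and higher. These q-values are the authors' own and carry no replicate here, and the authors' deposited table left CTCFL unmarked. Of the 39 genes 10 shared a locus span with another HOX gene (HOXA5 to HOXA7, HOXA9 and HOXA10, HOXB5 and HOXB6, HOXC4 to HOXC6), and the antisense genes HOXA-AS3 and HOXB-AS3 were listed with the same spans as HOX genes. Counting could split reads among them, so their single values are uncertain. The 3 marked genes each had a span of their own.

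**Figure D2:**
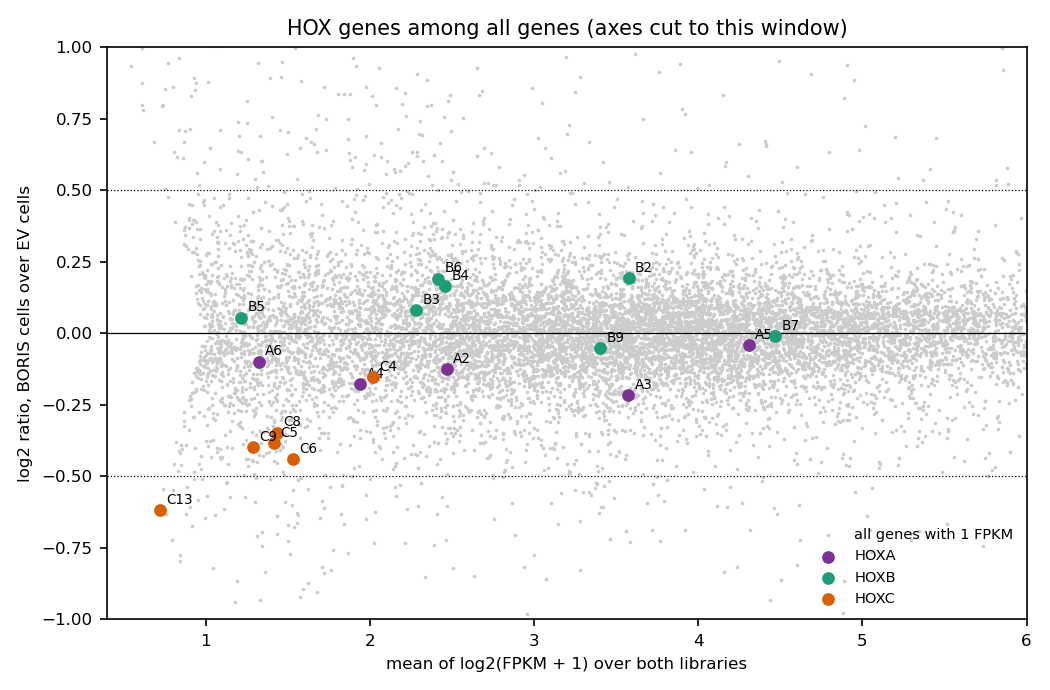
Log2 ratio of FPKM (BORIS over EV cells, 1 FPKM added to both) against the mean log2 level over both libraries, for measured HOX genes (coloured, labelled by cluster letter and number) and all measured genes in the window (grey), with dotted lines at 0.5 in size. The 6 HOXC points lie between -0.62 and -0.16 at the low end of the level axis, and the HOXA and HOXB points lie between -0.22 and 0.19.

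Other transcripts of the clusters were mostly silent, with 4 of 18 found reaching 1 FPKM. HOTAIRM1, a long non-coding RNA beside HOXA2, was at 11.5 FPKM in BORIS cells and 10.6 FPKM in EV cells. HOXB-AS3 was at 4.66 FPKM in BORIS cells and 5.30 FPKM in EV cells. HOTAIR, a non-coding RNA of HOXC, was at 0.0667 FPKM in BORIS cells and 0.122 FPKM in EV cells, and HOTTIP, beyond HOXA13, at 0.00395 FPKM in BORIS cells and 0.00486 FPKM in EV cells.

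The microRNA genes of the clusters are shown because 3 of them share a seed, the bases by which a microRNA recognises its targets. The seed (bases 2 to 8) is in capitals, and the mature sequences are from RefSeq (GRCh38.p14). MIR196A1 on chromosome 17 and MIR196A2 on chromosome 12 give hsa-miR-196a-5p, MIR196B on chromosome 7 gives hsa-miR-196b-5p, and MIR10A on chromosome 17 gives hsa-miR-10a-5p.
hsa-miR-196a-5p: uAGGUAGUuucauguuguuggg
hsa-miR-196b-5p: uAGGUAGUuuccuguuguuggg
hsa-miR-10a-5p: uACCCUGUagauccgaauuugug
The miR-196 family is known to target HOXB8 and other HOX transcripts. MIR196A1 was listed at 0 in BORIS cells and at 122.9 FPKM in EV cells, and MIR10A at 4.89 FPKM in BORIS cells and at 0 in EV cells. The rows are for hairpin-sized genes, where few fragments give a large FPKM, and the authors' deposited table marked neither. MIR196A2, MIR196B, MIR10B and MIR615 were listed at 0 in both.

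Genes that work with or upon the HOX clusters were read from the same libraries. Of 9 TALE homeodomain genes, whose proteins bind DNA together with HOX proteins, 7 were measured, with a median log2 ratio of -0.04. MEIS3 was lower in BORIS cells by the 0.5 threshold, at 3.50 FPKM against 5.84 FPKM in EV cells (log2 ratio -0.60), and PBX3 stood at 9.81 FPKM in BORIS cells and 10.2 FPKM in EV cells. Of 27 Polycomb genes, which keep silent HOX genes off, 26 were measured with a median of -0.03 and 0 past the threshold. PCGF2 was at 2.81 FPKM in BORIS cells and 4.22 FPKM in EV cells (log2 ratio -0.45), and was past the threshold with a pseudocount of 0.1 FPKM.

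Of 17 trithorax and MLL genes, which keep HOX genes on, 16 were measured, 14 of them below 0 (50.1% of all measured genes), with a median of -0.10 and 0 past the threshold. In the other lists 5 of 7 TALE, 17 of 26 Polycomb, 6 of 10 retinoic acid, 3 of 6 flanking and 2 of 4 Mullerian genes were below 0. The Polycomb gene CBX7 (0.906 FPKM in BORIS cells, 1.32 in EV cells) met the minimum in EV cells only, so it could only fall below 0. KDM6A, a demethylase of the Polycomb mark, was at 29.4 FPKM in BORIS cells and 36.0 FPKM in EV cells, and MLL, a histone methyltransferase of HOX loci, at 11.6 FPKM in BORIS cells and 14.0 FPKM in EV cells. As lower in BORIS cells, KDM6A, MLL2, MLL and DOT1L were marked in the authors' deposited table, which is 4 of 16 against 6.4% of all measured genes. The same mark in the authors' deposited table fell on 1 TALE gene (MEIS3), 1 Polycomb gene (CBX7), 1 retinoic acid gene (RARA) and 1 flanking gene (CBX5), and 2 retinoic acid genes (CRABP2 and DHRS3) were marked higher there (5.43% of all measured genes). Of 17 genes of the retinoic acid pathway, which sets HOX expression in the embryo, 10 were measured with a median of -0.10, and CRABP2, a carrier of retinoic acid, was higher by 0.72 on the log2 scale (3.09 FPKM in BORIS cells, 1.49 FPKM in EV cells). With a minimum of 5 FPKM no retinoic acid gene was past the threshold.

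The genes that flank the clusters gave 6 measured of 11 found, with a median of 0.01 and 0 past the threshold. Next to HOXC, SMUG1 was at 23.2 FPKM in BORIS cells and 20.9 FPKM in EV cells, and CBX5, which encodes a heterochromatin protein, at 35.9 FPKM in BORIS cells and 43.2 FPKM in EV cells. Next to HOXA, HIBADH was at 30.0 FPKM in BORIS cells and 27.8 FPKM in EV cells, and SKAP2 at 20.7 FPKM in BORIS cells and 21.7 FPKM in EV cells. Of 12 genes of Mullerian duct patterning, the origin of the fallopian tube, 4 were measured with a median of -0.05 and 0 past the threshold.

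Each cluster was taken from the lowest to the highest coordinate of its HOX rows on hg19. HOXA lay on chromosome 7 (107 kb) and HOXB on chromosome 17 from 46606806 to 46806111 (199 kb). HOXC lay on chromosome 12 from 54332575 to 54449814 (117 kb) and HOXD on chromosome 2 from 176957531 to 177055635 (98.1 kb). A peak was counted when it overlapped a span by at least 1 bp. Peak scores are the authors' own and have no stated unit, so each is given as its percentile within its own list, and percentiles of lists of different lengths show no change in binding.

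The clusters were rich in peaks of all 3 lists. They held 43 BORIS peaks, 34 CTCF peaks in BORIS cells and 31 CTCF peaks in EV cells. Per 100 kb this was 8.24 BORIS peaks, 6.52 CTCF peaks in BORIS cells and 5.94 CTCF peaks in EV cells. The lists as a whole, spread over genes and gene-poor stretches alike, held 0.802 BORIS peaks, 1.51 CTCF peaks in BORIS cells and 1.46 CTCF peaks in EV cells per 100 kb. BORIS peaks were densest in HOXA, at 15.9 per 100 kb, and thinned over HOXB (8.03), HOXC (5.97) and HOXD (3.06). CTCF peaks did not follow that order. In BORIS cells their density was 8.40 in HOXA, 5.52 in HOXB, 6.82 in HOXC and 6.12 in HOXD, and in EV cells 8.40, 5.02, 5.97 and 5.10. These densities count weak and strong peaks alike. The median percentile of BORIS peaks was 40.7 in HOXA, 55.9 in HOXB, 18.4 in HOXC and 47.2 in HOXD. The order of the clusters was not examined for higher-scoring BORIS peaks alone.

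**Figure D3:**
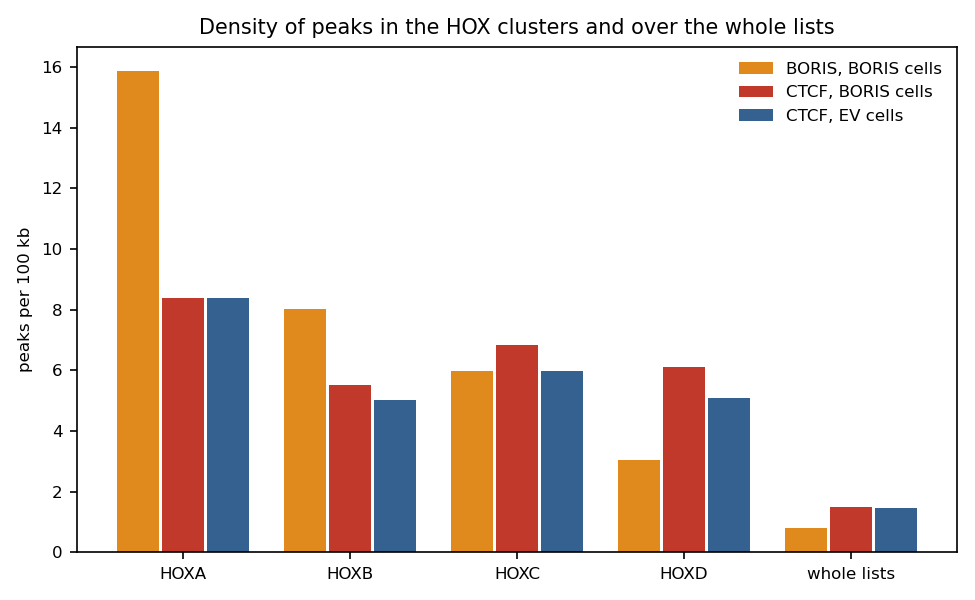
Peaks per 100 kb (linear axis from 0) in each HOX cluster and over the whole lists, for BORIS in BORIS cells, CTCF in BORIS cells and CTCF in EV cells, 1 library each. The BORIS bars go from 15.9 in HOXA to 3.06 in HOXD, while the CTCF bars lie between 5.02 and 8.40 in the clusters.

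A larger share of BORIS peaks lay away from CTCF in the clusters than in the list as a whole. Of the 43, 26 overlapped no CTCF peak of BORIS cells (60.5%, 95% Wilson interval 45.6 to 73.6), against 34.4% of the whole BORIS list, and the interval covers counting error only, over neighbouring peaks of 1 library. They were 12 of 17 in HOXA, 9 of 16 in HOXB, 5 of 7 in HOXC and 0 of 3 in HOXD. Seen from CTCF, 18 of the 34 CTCF peaks in BORIS cells overlapped a BORIS peak (52.9%, 36.7 to 68.5), against 35% of that list. With 50% reciprocal overlap the share was 32.4% in the clusters and 24.6% of the whole list, and among the higher-scoring peaks of each list it was 35% in the clusters and 30.7% of the whole.

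The map of the clusters shows where these peaks lay. In HOXA, 16 of the 17 BORIS peaks fell in the 63.7 kb from the low-numbered end of the cluster to the shared span of HOXA5, HOXA6 and HOXA7, the stretch with measured RNA, at 25.1 per 100 kb. The median percentile of these 16 in the BORIS list was 39.5. The other 43.4 kb, with HOXA9 to HOXA13, held 1 BORIS peak. CTCF peaks were divided 6 and 3 between these stretches in BORIS cells and likewise 6 and 3 in EV cells. In HOXB, 10 of 16 BORIS peaks lay in the 83.8 kb from HOXB2 to HOXB9. The other 115 kb held 6, so that BORIS had 11.9 and 5.20 peaks per 100 kb. CTCF peaks of HOXB were divided 7 and 4 in BORIS cells (8.35 and 3.46 per 100 kb) and 5 and 5 in EV cells (5.97 and 4.33 per 100 kb). This division at the ends of the measured genes was chosen after the values were seen.

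The span of HOXA3 alone, 20.8 kb, held 7 BORIS peaks and 0 CTCF peaks of either list. Their percentiles in the BORIS list ran from 1.28 to 76.2, the highest at 27145927 to 27146644. The BORIS peak at 27169502 to 27170052 within HOXA4 was stronger, at percentile 90.6, and lay over CTCF peaks of both populations at percentile 45.6 in BORIS cells and 41.4 in EV cells. The widest BORIS peak of the clusters, 1678 bp at 27181494 to 27183171, lay within the shared span of HOXA5, HOXA6 and HOXA7 at percentile 94.5.

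The 3 strongest CTCF places of HOXA, the same 3 places in both CTCF lists though in another order, lay between gene spans or at the end of one. A CTCF peak at 27200531 to 27200980 lay between the span of HOXA5 to HOXA7 and that of HOXA9 and HOXA10, at percentile 97.4 in BORIS cells and 90.6 in EV cells, with no BORIS peak. Another, between HOXA4 and HOXA5 at 27175985 to 27176378, was at percentile 95.03 in BORIS cells and 83.0 in EV cells, also without BORIS. At 27219304 to 27219728, 364 bp inside the upstream end of the HOXA9 and HOXA10 span, CTCF was at percentile 94.5 in BORIS cells and 92.5 in EV cells, and the 1 BORIS peak of the silent end lay there at percentile 94.4.

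**Figure D4:**
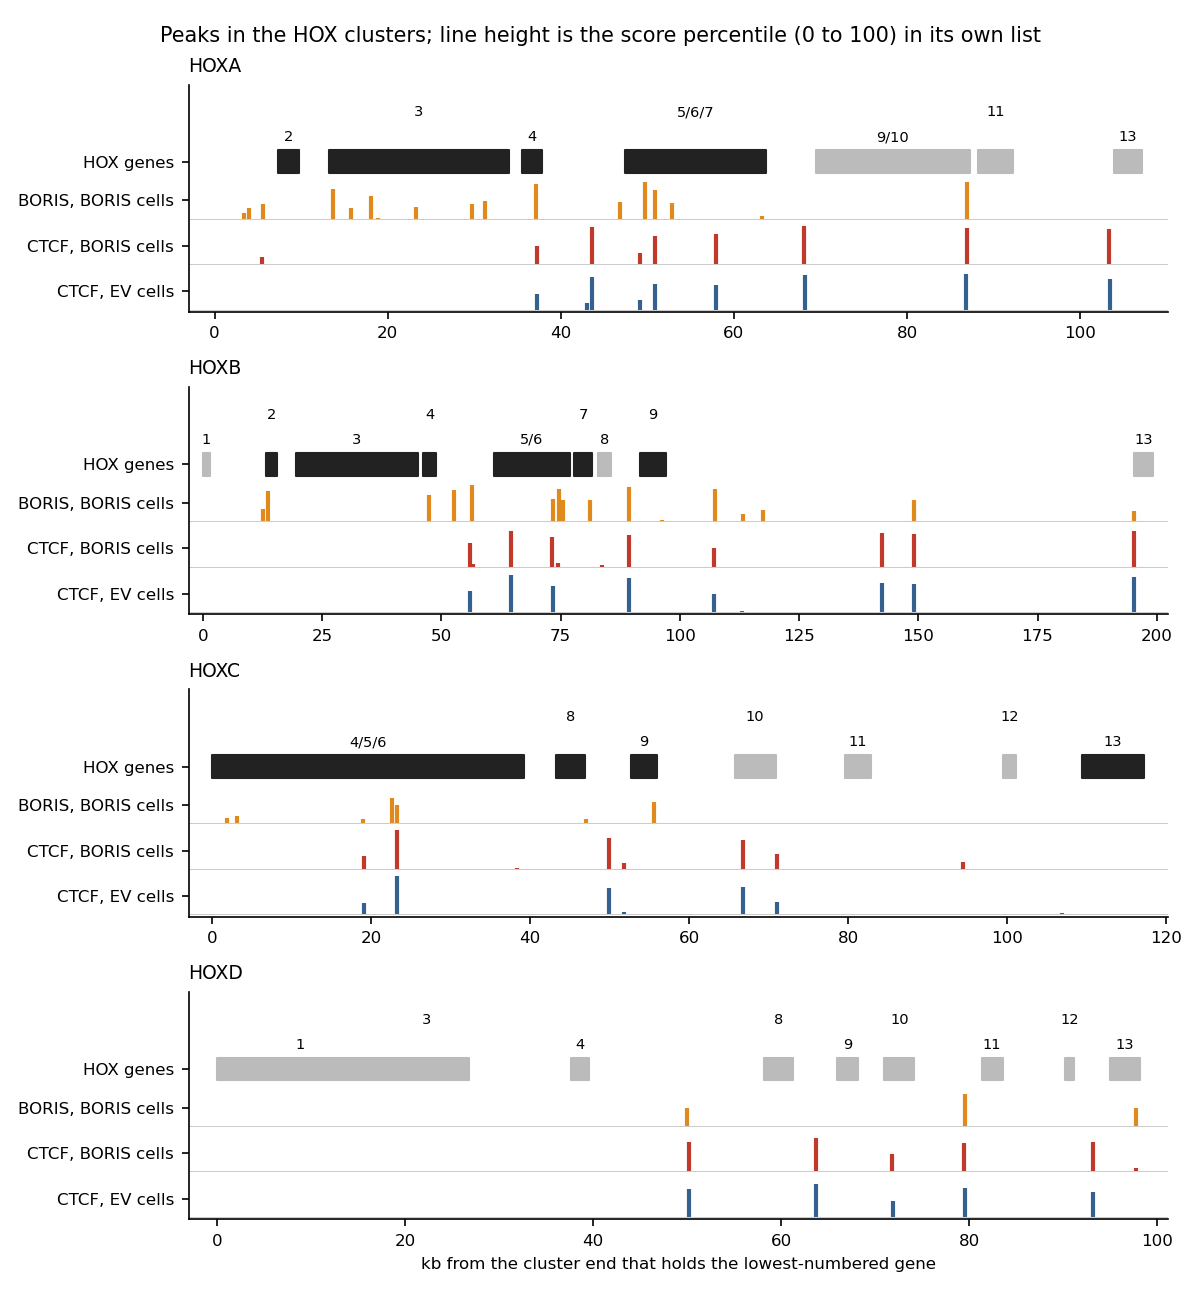
Map of the 4 clusters, with distance in kb from the end that holds the lowest-numbered gene on the horizontal axis, HOX spans described in the text as boxes (black with at least 1 FPKM in either library, grey without) and each peak as a line whose height is its score percentile in its own list. In HOXA, 16 of 17 BORIS lines stand over the stretch up to genes 5/6/7, and most CTCF lines stand at the same places in BORIS cells and EV cells.

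In HOXB the strongest BORIS peak stood between HOXB4 and HOXB5, at 46662676 to 46663638 and percentile 94.3. It overlapped in part a CTCF peak called in both populations, and covered another called in BORIS cells only. The strongest CTCF peak of HOXB in EV cells lay within the shared span of HOXB5 and HOXB6, at percentile 95.6, with no BORIS peak. In BORIS cells that place, at 46671223 to 46671630, was at percentile 91.1. Another CTCF peak at 46695856 to 46696357, between HOXB8 and HOXB9, was at percentile 81.9 in BORIS cells and 88.8 in EV cells, with a BORIS peak at percentile 89.2. CTCF also stood 66 bp from an end of the silent HOXB13, at 46801859 to 46802262 and percentile 92.0 in BORIS cells and 90.9 in EV cells. A wide BORIS peak of 1581 bp, without CTCF, covered part of HOXB2 at percentile 77.4.

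In HOXC, the cluster with the lowest ratios, CTCF at 54426344 to 54426928 within the shared span of HOXC4 to HOXC6 was the strongest CTCF peak of any cluster, at percentile 99.8 in BORIS cells and 99.6 in EV cells. A BORIS peak lay within it at percentile 47.2. The strongest BORIS peak of HOXC, at 54426989 to 54427444 and percentile 67.0, lay beside it without CTCF. It was 1 of 3 BORIS peaks without CTCF in BORIS cells within that shared span. BORIS peaks without CTCF stood at the starts of HOXC9 and HOXC8, and also at those of HOXB7 (log2 ratio -0.01) and HOXB9 (-0.05), which the authors' deposited table left unmarked. Of all genes with 1 FPKM, 57.9% had BORIS within 1 kb of either end. The peak at HOXC9, at 54393978 to 54394488, was centred 357 bp into the gene at percentile 54.3, and that at HOXC8, at 54402598 to 54402909, was centred 136 bp before its start at percentile 10.4. The span of HOXC13 held no peak of any list, and the nearest BORIS peak of the cluster was that at HOXC9. In HOXD all 3 BORIS peaks overlapped CTCF, and the strongest CTCF peak, between HOXD9 and HOXD8 at 176991645 to 176992273, was at percentile 87.4 in BORIS cells and 85.3 in EV cells without BORIS.

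The share of HOX genes with a BORIS peak near an end was close to that of all genes. With the peak centre within 1 kb of either end of the gene span, 15 of 39 HOX genes had a BORIS peak, against 40.3% of all genes. Among those with 1 FPKM it was 10 of 19 (57.9% of all such genes), and under 1 FPKM it was 5 of 20 (19.7%). CTCF stood near 13 of 39 in BORIS cells (27.2%) and 8 of 39 in EV cells (24.4%). For CTCF in BORIS cells it was 5 of 19 with 1 FPKM (34.3%) and 8 of 20 under 1 FPKM (18.9%). For CTCF in EV cells it was 2 of 19 with 1 FPKM (30.7%) and 6 of 20 under 1 FPKM (16.9%). HOXC4, HOXC5 and HOXC6 each entered the count of BORIS cells through the same CTCF peak, at percentile 3.04. HOXA had 8 of 11 with BORIS, where genes of a shared span were counted each. For the genes with a span of their own, a BORIS peak was centred within 1 kb of the start at HOXA4, HOXB7, HOXB9, HOXC8, HOXC9 and HOXD13 among others, and the log2 RNA ratios of the measured ones named were from -0.40 (HOXC9) to -0.01 (HOXB7). CTCF was centred within 1 kb of the start of HOXA4 and HOXC10 in both populations and of HOXD13 in BORIS cells.

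The CTCF places were mostly shared between the populations. Of the 34 CTCF peaks in BORIS cells 28 were also called in EV cells (82.4%, Wilson interval 66.5 to 91.7, against 90.8% of the whole list). Of the 31 in EV cells 28 were also called in BORIS cells (90.3%, 75.1 to 96.7, against 94.2%). The 28 shared places had a median percentile of 76.0 in the CTCF list of BORIS cells and 70.1 in that of EV cells, and 15 of them overlapped a BORIS peak. Of all CTCF peaks in BORIS cells, shared or not, 35% did so. A share over all shared CTCF places was not made.

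The 6 CTCF peaks found in BORIS cells but not in EV cells (9.15% of the whole list were such peaks) all lay under percentile 20. Of these, 3 overlapped a BORIS peak. They were at 27138015 to 27138254, 1838 bp from HOXA2 (percentile 18.4), at 46663198 to 46663531 between HOXB4 and HOXB5 (7.76) and at 176957860 to 176958062 within HOXD13 (7.76). The other 3, without BORIS, were at 46690268 to 46690559 within HOXB8 (3.04), at 54355239 to 54355443 between HOXC12 and HOXC11 (18.1) and at 54411355 to 54411585 within the span of HOXC4 to HOXC6 (3.04).

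The 3 CTCF peaks found in EV cells but not in BORIS cells were as weak. They were at 27175552 to 27175788 between HOXA4 and HOXA5 (percentile 16.0), at 46719790 to 46720010 between HOXB9 and HOXB13 (1.47), where a BORIS peak stood in BORIS cells, and at 54342866 to 54343016, 2613 bp from HOXC13 (3.60). The peak lists have no stated depth or threshold, so a weak peak called in 1 list may be present under the threshold of the other.

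HOX promoters are shown for the core of the known CTCF motif, spelled CC, any 3 bases, AG, any 2 bases and GGC, searched on both strands of RefSeq windows (GRCh38.p14) from 250 bases before to 50 bases after a gene's start. The table held 26 distinct windows of 20 of the 39 HOX genes. HOXA3 had several windows, HOXB1 was the only HOXB gene with one, and HOXC4 and HOXC5, which shared theirs, were the only HOXC genes. Of the 19 measured HOX genes 6 had a window, so the windows are not a survey of HOX promoters. The motif was in 4 windows (15.4%), against 10.6% of 35116 windows of all genes, and overlapping matches were counted once per window. The median GC content was 58.0% in HOX windows and 58.7% in all windows, and the median number of CG pairs was 22.5 in HOX windows and 14 in all windows. The 4 windows are printed 5′ to 3′ on the gene's strand with the motif in capitals.
HOXA10, chr7:27179812-27180111, minus strand: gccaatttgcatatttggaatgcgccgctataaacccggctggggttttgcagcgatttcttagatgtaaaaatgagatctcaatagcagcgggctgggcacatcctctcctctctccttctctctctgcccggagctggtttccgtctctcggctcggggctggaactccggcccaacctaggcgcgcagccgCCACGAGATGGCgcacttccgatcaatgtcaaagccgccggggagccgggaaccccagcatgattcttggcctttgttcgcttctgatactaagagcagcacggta
HOXA11, chr7:27185183-27185482, minus strand: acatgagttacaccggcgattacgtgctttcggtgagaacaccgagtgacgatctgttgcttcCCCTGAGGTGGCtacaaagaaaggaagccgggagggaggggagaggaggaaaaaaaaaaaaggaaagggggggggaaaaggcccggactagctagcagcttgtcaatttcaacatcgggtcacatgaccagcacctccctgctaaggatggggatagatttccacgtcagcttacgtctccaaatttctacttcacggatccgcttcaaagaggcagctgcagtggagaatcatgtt
HOXD10, chr2:176116528-176116827, plus strand: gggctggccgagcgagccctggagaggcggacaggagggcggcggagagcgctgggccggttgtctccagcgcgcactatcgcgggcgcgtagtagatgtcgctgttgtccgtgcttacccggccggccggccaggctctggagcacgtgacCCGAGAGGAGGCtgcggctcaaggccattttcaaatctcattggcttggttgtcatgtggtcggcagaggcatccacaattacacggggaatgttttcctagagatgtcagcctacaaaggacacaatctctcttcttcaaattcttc
HOXD1, chr2:176188418-176188717, plus strand: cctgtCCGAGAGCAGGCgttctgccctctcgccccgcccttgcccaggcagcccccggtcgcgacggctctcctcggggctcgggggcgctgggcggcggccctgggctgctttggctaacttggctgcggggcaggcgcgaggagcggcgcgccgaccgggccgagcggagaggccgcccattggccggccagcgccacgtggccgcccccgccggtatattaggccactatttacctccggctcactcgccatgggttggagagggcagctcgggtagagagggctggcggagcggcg
All 4 belong to genes under 1 FPKM in both libraries, as did 14 of the 20 HOX genes with a window. HOXA10 was at 0.264 FPKM in BORIS cells and 0.233 FPKM in EV cells, and HOXA11, HOXD10 and HOXD1 were listed at 0 in both. The upstream of the 2 HOXA10 windows is the one printed, and a CTCF and BORIS place stood near the upstream end of the HOXA9 and HOXA10 span on hg19. The builds differ, so whether the window lies under that peak was not determined. A match of these letters is a description and not a binding site.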

How the data were processed

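RNA was sequenced from BORIS cells and EV cells, CTCF was precipitated in both and BORIS in BORIS cells, with 1 sample per group and 6 samples in all. The input of EV cells was not used here. FPKM values, p-values, q-values and marks of significance come from the authors' deposited expression table. The submitters' processing notes name hg19 and, without their roles, TopHat2, Bowtie and Cufflinks 2.0.0. The labels' protocols name 2 kits for RNA libraries, and do not say which was used for which, so a kit difference, if any, cannot be told apart from the effect of BORIS. Peak starts, ends and scores come from the authors' deposited lists, and their caller, threshold and depth are not given in the sources used here.

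The members, gene lists, thresholds and alternatives were chosen with earlier results of these data known. Log2 ratios used a pseudocount of 1 FPKM and a minimum of 1 FPKM in the higher library. All measured genes entered the background, and no test was made because each group held 1 library. HOX genes with 1 FPKM were named, apart from 1 that enters the counts and medians and is not reported here on its own, and of the other lists up to 4 members with the largest ratios. Peaks of the 3 lists counted as shared from 1 bp of overlap, on 1-based coordinates. Strand came from the RefSeq promoter table (GRCh38.p14). The ratio and overlap steps were tested on simulated data. Python 3.11.15, numpy 2.4.6, pandas 2.3.3, scipy 1.17.1 and matplotlib 3.10.9 were used.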

Additional observations from a re-analysis of the deposited data

How the results depend on the processing

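No paired analysis was possible because each group held 1 sample, and for the same reason no replicate could be left out. With a pseudocount of 0.1 FPKM the median log2 ratio of HOXC was -0.61, 5 HOX genes, all in HOXC, were lower by 0.5 (3.48% of all measured genes) and 1, in HOXC, was lower by 1. At this setting no share was made for genes of like level, or for genes lower by 1. With a minimum of 5 FPKM the HOX median was -0.042, that of HOXB was -0.011 and that of the Mullerian list was 0.023, the last 2 turned in sign, and 0 HOX genes and 0 HOXC genes were lower by 0.5, as no HOXC gene reaches 5 FPKM. Among the peaks of each list above its median score the clusters held 20 BORIS peaks, 20 CTCF peaks in BORIS cells and 20 in EV cells. There 35% of CTCF peaks in BORIS cells overlapped BORIS (30.7% of the whole list with the same cut), and 100% of the CTCF peaks of either population were also called in the other. For the latter no share of the whole lists was made with this cut. Without it the whole lists had 90.8% for BORIS cells and 94.2% for EV cells, so the 100% is not shown to be particular to the clusters. With 50% reciprocal overlap, 32.4% of CTCF peaks in BORIS cells overlapped BORIS (24.6% of the whole list) and 74.4% of BORIS peaks had no CTCF in BORIS cells (53.7% of the whole BORIS list). Within 500 bp of a gene end, 10 HOX genes had a BORIS peak, 5 a CTCF peak in BORIS cells and 5 a CTCF peak in EV cells. Within 5 kb, 26 had a BORIS peak, 30 a CTCF peak in BORIS cells and 25 in EV cells. No share of all genes was made at 500 bp or 5 kb, so these counts are not shown to be particular to HOX genes. The remaining alternatives, which were a pseudocount of 0.5, centring on the median of all genes, no minimum, usable estimates only, peaks wholly inside a span, 20 kb of flanks, centres within 500 bp and percentiles over shared peaks, turned no direction and moved no count past 1.5 times. Unknown depth limits the low HOXC values and the weak peaks.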
